A study of Homo sapiens with 4 samples.

Results

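The genes described here are 10 of the 58735 genes in the count table of HCC1954 cells, chosen by name as subunits of the transcription factor NF-κB (NFKB1, NFKB2, REL, RELA and RELB), as inhibitors that restrain it (NFKBIA, NFKBIE and TNFAIP3), and as target genes that feed back on it (TNF and BIRC3). The genes were picked by these roles, with earlier results of these data known. All 10 passed the filter on low counts and were tested.

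NF-κB is a family of dimers built from Rel-homology proteins. RELA, REL and RELB carry an activation domain, while NFKB1 and NFKB2 encode precursors that are trimmed into DNA-binding partners. In resting cells the dimers are held in the cytoplasm by IκB proteins such as those of NFKBIA and NFKBIE. Signals from tumor necrosis factor, interleukin-1 or Toll-like receptors activate the IκB kinase complex, IκB is degraded, and the freed dimers bind κB sites in the promoters of inflammatory and survival genes. Among the genes they induce are their own inhibitors, so that NFKBIA and TNFAIP3, which encodes the ubiquitin-editing protein A20, act as negative feedback. In epithelial tumors the pathway is known for cytokine production and for protection from cell death.

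HCC1954 is an established HER2-amplified human breast cancer cell line. Total RNA was sequenced from 2 samples with a control hairpin (shCON, a scrambled sequence) and 2 samples with a hairpin against the palmitoyltransferase gene ZDHHC15 (shZDHHC15), in order to find the genes that depend on ZDHHC15. Both groups carried GIPZ hairpin vectors. The labels speak of a stable knockdown in the design text and of a transient transfection with harvest after 36 h in the protocol. The study's methods mention monoclonal cultures screened by western blot, and neither source says whether the shZDHHC15 samples are repeat cultures, different hairpins or single clones. The p-values therefore measure the spread between these samples, which may be technical.

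The libraries held 17560982 to 19118704 counts on genes. ZDHHC15 itself had 17617 and 15716 counts under the control hairpin and 0 in both samples with the hairpin against it. Why no count at all remained under a knockdown was not tested. The 8 epithelial and HER2-amplicon markers of HCC1954 were all expressed and summed to 19440 and 20969 CPM in shCON and to 11723 and 11942 CPM in shZDHHC15 (CPM is the count scaled to a common library size, with edgeR's TMM factors as the correction for composition). Of these 8 markers 6 fell, against 20.3% of all tested genes, with KRT8 and KRT18 lowest at log2 fold changes of -1.62 and -1.58. KRT19 was higher (0.44) and CDH1 did not pass the test (-0.05). Of 14 leukocyte markers, 6 had 0 counts in all 4 samples, and the sum of the list was 9.97 and 11.9 CPM in shCON and 6.38 and 7.48 CPM in shZDHHC15. Most of that sum was CSF1R, which fell from 153 and 177 counts to 68 and 105, while CD14, the only other one tested, rose from 9 and 5 counts to 25 and 22. Of 7 fibroblast markers, 5 never exceeded 3 counts, and the list summed to 5.81 and 7.22 CPM in shCON and to 11.5 and 8.60 CPM in shZDHHC15, nearly all of it COL1A1. The part of these markers in the results below was not tested. In such bulk RNA, fewer cells that express a gene and less RNA per cell cannot be told apart.

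The groups were compared with the quasi-likelihood F-test of edgeR, p-values were adjusted by Benjamini and Hochberg's method over all 15817 tested genes, and "higher", "lower", "rose" and "fell" are used for an adjusted p under 0.05. By that rule 42% of all tested genes differed between the groups, 21.7% higher and 20.3% lower in shZDHHC15 cells. With 2 samples in each group, no exact permutation of labels reaches a two-sided p smaller than 0.333, and the model's p-values depend on variance information pooled over genes.

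The promoters of most of these genes hold matches to the κB site, the sequence that NF-κB dimers bind. RefSeq promoter windows on GRCh38.p14, from 250 bases before to 50 bases after a transcription start, were found for 8 members. RELB and NFKBIE had no entry. The windows were searched on both strands for the κB decamer consensus, which a purine-rich and a pyrimidine-rich end define. A match stood in the window of 6 of the 8 genes, and in 11.3% of all 35116 promoter windows, or 13.3% of the 27305 genes they belong to. The sequences are shown as places where the family could bind its own genes. They are matches of letters, and binding was not tested. Matched bases are in capitals, with 30 bases in each line, read 5′ to 3′ on the strand of the gene. Where overlapping or adjacent matches share a line, all their bases are in capitals.

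NFKB1, chr4:102501300-102501329, plus strand: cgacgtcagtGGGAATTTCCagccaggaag
NFKB2 start 2, chr10:102394462-102394491, plus strand: aaacgtcatGGGAATTCCCCcctccggggg
NFKB2 start 2, chr10:102394490-102394519, plus strand: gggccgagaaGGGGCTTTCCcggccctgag
NFKB2 start 3, chr10:102395519-102395548, plus strand: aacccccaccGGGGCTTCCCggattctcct
NFKB2 start 3, chr10:102395674-102395703, plus strand: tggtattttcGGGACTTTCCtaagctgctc
REL, chr2:60881518-60881547, plus strand: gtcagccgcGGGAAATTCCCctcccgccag
NFKBIA, chr14:35404811-35404840, minus strand: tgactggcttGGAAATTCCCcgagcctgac
TNFAIP3, chr6:137867188-137867217, plus strand: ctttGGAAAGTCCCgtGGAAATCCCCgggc
BIRC3, chr11:102317275-102317304, plus strand: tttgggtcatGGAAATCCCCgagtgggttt
BIRC3, chr11:102317339-102317368, plus strand: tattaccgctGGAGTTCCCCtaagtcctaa

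In REL and NFKB2 a pair of matches overlaps by all but 1 base, because the site is nearly a palindrome and reads as a match from both ends. In TNFAIP3 a pair of matches lies side by side, beginning at positions -67 and -55 from the start. The windows of RELA and TNF held no match, which says only that these letters are not in them. The matches of REL, NFKB2 and TNFAIP3 lie inside the gene coordinates of the count table, which begin further upstream than the RefSeq starts used. For the inhibitor gene NFKBIA and the feedback target BIRC3, a longer stretch that ends before the annotated exons is shown to give the surroundings of the matches, 250 bases for NFKBIA and 216 bases for BIRC3.

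NFKBIA, chr14:35404750-35404999, minus strand: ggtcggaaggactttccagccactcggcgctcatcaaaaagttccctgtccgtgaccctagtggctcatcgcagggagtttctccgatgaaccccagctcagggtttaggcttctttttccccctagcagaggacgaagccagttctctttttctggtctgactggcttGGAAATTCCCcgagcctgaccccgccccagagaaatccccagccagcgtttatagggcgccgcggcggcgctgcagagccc
BIRC3, chr11:102317234-102317449, plus strand: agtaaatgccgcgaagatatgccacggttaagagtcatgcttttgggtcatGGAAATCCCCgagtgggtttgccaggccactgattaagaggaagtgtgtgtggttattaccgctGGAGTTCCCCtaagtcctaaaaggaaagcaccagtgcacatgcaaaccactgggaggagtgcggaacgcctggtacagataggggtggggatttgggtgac

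**Figure D1:**
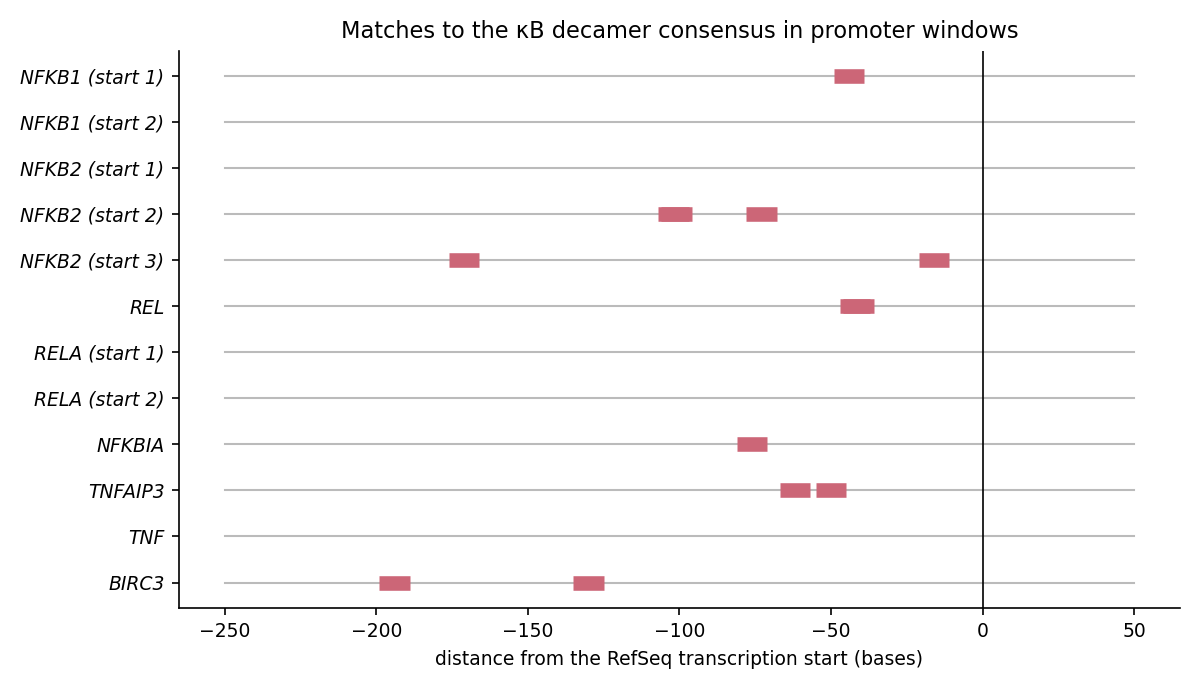
Positions of matches to the κB decamer consensus (red) in the RefSeq promoter windows of 8 NF-κB genes, as the distance in bases from the transcription start (vertical line), with 1 row per start. Matches stand in 7 of the 12 windows and all of them lie before the RefSeq start.

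A shared match did not go with a shared direction. Of the 6 genes with a match, REL and BIRC3 were higher, TNFAIP3 was lower, and NFKB1, NFKB2 and NFKBIA did not pass the test. Over all tested genes with a promoter entry, 24.0% of the 1877 genes with a match were higher and 22.3% lower, against 22.8% and 22.3% of the 8866 genes without one. A pair of other motifs was searched. The core repeat of interferon-responsive elements stood in 1 of the 12 windows, that of RELA, or 8.33%, against 3.57% of all windows. CATTCC, the core bound by the TEAD partners of YAP, also stood in 1 of the 12, a window of NFKB1, against 14.0% of all windows, and neither motif overlapped a κB match.

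Among the 10 genes, 2 were higher and 4 were lower in ZDHHC15-depleted cells, and 4 did not pass the test. That is 60% of the members called, against 42% of all tested genes. The 42% covers tested genes of all levels and was not matched to the levels of the members. REL was the member that rose most, 2.24-fold, and TNFAIP3 the member that fell most, 2.28-fold, followed by NFKBIE, which fell 1.58-fold. The changes of RELA, RELB and BIRC3 were within 1.3-fold. When a log2 fold change beyond 1 was also asked for, only REL remained higher and only TNFAIP3 lower, which was 20% of the members against 11.3% of all tested genes. The samples of the groups did not overlap for 8 of the 10 members, whether called or not. The depleted samples lay above the controls for 4 of them and below for 4. Of those above, NFKB1 and NFKBIA did not pass the test. Over all tested genes the shares without overlap were 37.2% above and 35.3% below, or 72.5% together. The median log2 fold change of the members was 0.06, and that of all tested genes was 0.02.

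**Figure D2:**
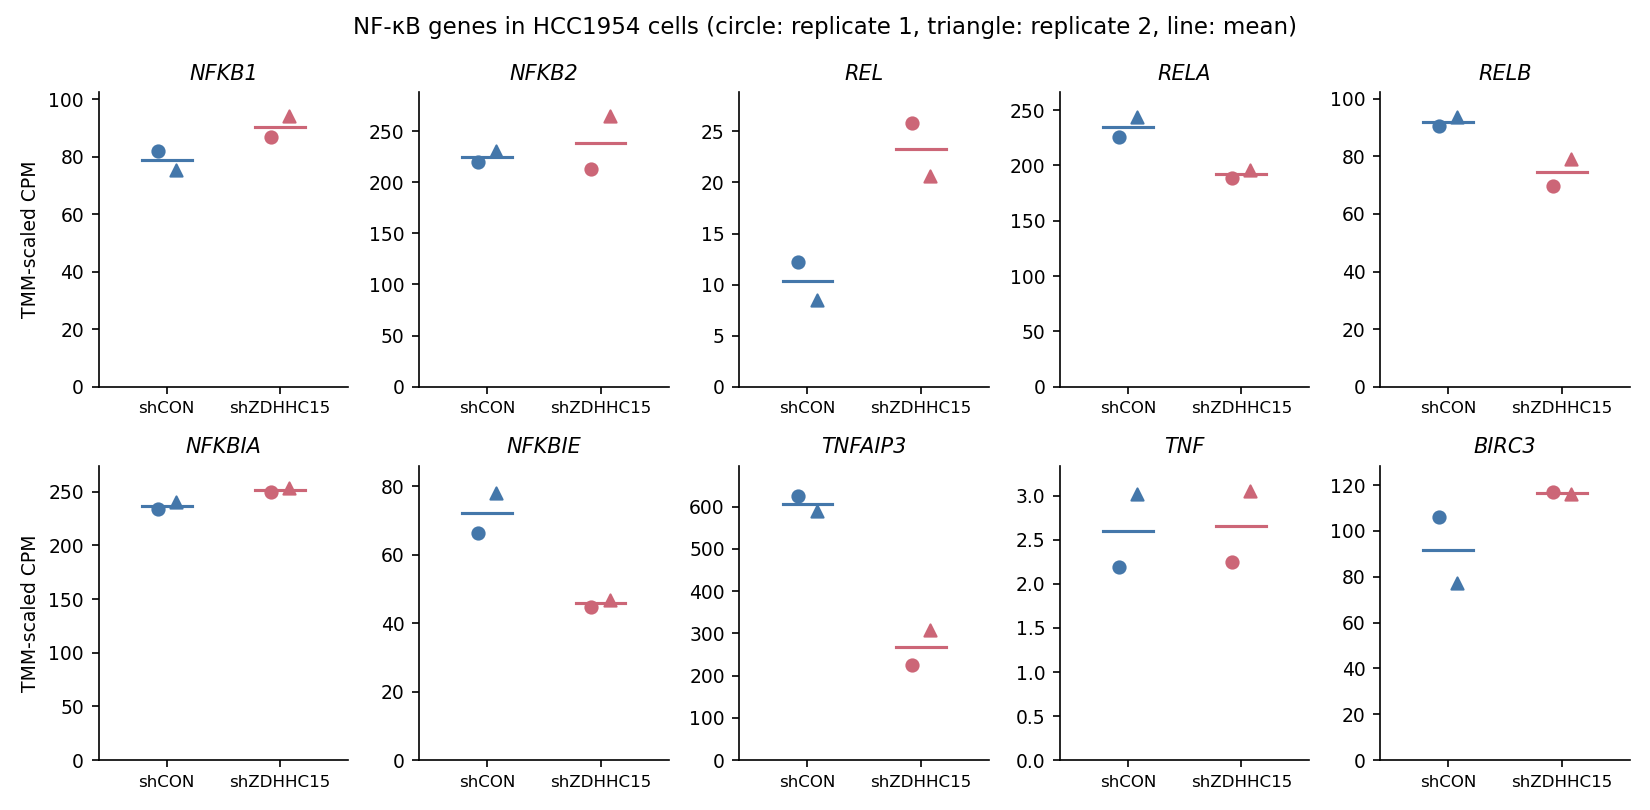
Levels (CPM, TMM-scaled) of the 10 genes in each sample, with shCON in blue and shZDHHC15 in red, circles for replicate 1, triangles for replicate 2 and a line at the mean of each group. TNFAIP3 falls from 625 and 588 CPM to 226 and 307 CPM, and the groups overlap only for NFKB2 and TNF.

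REL (ENSG00000162924, chromosome 2, 60881521 to 60931610, plus strand) encodes c-Rel, the subunit best known from lymphocytes. Its counts were 223 and 143 in shCON and 482 and 406 in shZDHHC15. Its level was 12.2 and 8.46 CPM in shCON and 25.9 and 20.7 CPM in shZDHHC15. Both depleted samples lay above both controls, although the spread within each group was wide. The log2 fold change was 1.16 with a standard error of 0.177 (adjusted p = 1.13e-04 from edgeR), and it passed the threshold under all 14 alternatives, with values between 0.86 and 1.43. The exons of AC010733.2 cover 5702 bases of the exons of REL on the same strand, with 0 counts of its own in all 4 samples. The long REL transcript also shares runs of 75 bases with transcripts of 73 other genes, so that part of its reads could have been assigned elsewhere.

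RELA (ENSG00000173039, chromosome 11, 65653596 to 65663094, minus strand) encodes the main activating subunit of the classical pathway. Its level was 226 and 244 CPM in shCON and 189 and 196 CPM in shZDHHC15, so that both depleted samples were below both controls by a small margin. The log2 fold change was -0.29 with a standard error of 0.0909 (adjusted p = 0.0200 from edgeR). RELB (ENSG00000104856, chromosome 19, 45001430 to 45038198, plus strand), the activating subunit of the alternative pathway, had 90.4 and 93.6 CPM in shCON and 69.7 and 79.3 CPM in shZDHHC15. These groups did not overlap either, and the log2 fold change was -0.30 with a standard error of 0.102 (adjusted p = 0.0267 from edgeR).

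Neither of these falls was secure. RELA passed under 8 of 14 alternatives (adjusted p between 0.00135 and 0.361) and RELB under 9 of 14 (0.00552 and 0.312). With library size as the only scaling both were lost, with log2 fold changes of -0.21 for RELA (adjusted p = 0.0638) and -0.23 for RELB (adjusted p = 0.0863). RELA was also lost without shCON replicate 2 (-0.23, adjusted p = 0.0574), without shZDHHC15 replicate 1 (-0.26, adjusted p = 0.169) and without shZDHHC15 replicate 2 (-0.31, adjusted p = 0.0802), and RELB without shZDHHC15 replicate 1 (-0.22, adjusted p = 0.30).

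The genes of the precursor subunits did not pass the test. NFKB1 (ENSG00000109320, chromosome 4, 102501329 to 102617302, plus strand), the precursor of the classical partner of RELA, had 81.9 and 75.6 CPM in shCON and 87.0 and 94.1 CPM in shZDHHC15. The groups did not overlap, and the log2 fold change of 0.20 had a 95% interval from -0.01 to 0.42 (adjusted p = 0.122 from edgeR). With library size as the only scaling NFKB1 was called higher (0.28, adjusted p = 0.0442, with a range of 0.0442 to 0.671 over the alternatives). NFKB2 (ENSG00000077150, chromosome 10, 102394110 to 102402529, plus strand), the precursor of the partner of RELB, had 219 and 230 CPM in shCON and 213 and 264 CPM in shZDHHC15, so that the depleted samples lay on either side of the controls. Its log2 fold change was 0.09, with an interval from -0.14 to 0.31 (adjusted p = 0.536 from edgeR).

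TNFAIP3 (ENSG00000118503, chromosome 6, 137867188 to 137883312, plus strand) encodes A20, which removes and edits ubiquitin chains on signaling proteins and so ends the response to tumor necrosis factor. Its counts were 11420 and 9939 in shCON and 4218 and 6037 in shZDHHC15. Its level fell from 625 and 588 CPM to 226 and 307 CPM. The gap between the depleted samples was wider than that between the controls, but both lay far below them. The log2 fold change was -1.19 with a standard error of 0.119 (adjusted p = 2.25e-06 from edgeR), and it stayed between -1.42 and -0.98 under all 14 alternatives, each of which called it lower. Of its exons 95 bases overlap AL357060.1 on the opposite strand, a gene with 248 to 419 counts that did not pass the test (adjusted p = 0.452).

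NFKBIE (ENSG00000146232, chromosome 6, 44258166 to 44265788, minus strand) encodes IκBε, which holds REL- and RELA-containing dimers in the cytoplasm. Its level was 66.3 and 78.0 CPM in shCON and 44.7 and 46.7 CPM in shZDHHC15. The depleted samples were close to each other and below both controls. The log2 fold change was -0.66 with a standard error of 0.111 (adjusted p = 2.78e-04 from edgeR), and NFKBIE was called lower under all 14 alternatives, with values between -0.79 and -0.53. NFKBIA (ENSG00000100906, chromosome 14, 35401511 to 35404749, minus strand) encodes IκBα, the inhibitor that NF-κB induces within the first phase of a response. It had 234 and 240 CPM in shCON and 249 and 253 CPM in shZDHHC15, which is a narrow range in which the groups nonetheless did not overlap. Its log2 fold change was 0.08, with a 95% interval from -0.10 to 0.27 (adjusted p = 0.472 from edgeR). The inhibitor genes thus differed among themselves, with TNFAIP3 and NFKBIE lower and the interval of NFKBIA near 0.

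TNF (ENSG00000232810, chromosome 6, 31575567 to 31578336, plus strand) encodes tumor necrosis factor, both an inducer and a target of the pathway. It was scarce, with 40 and 51 counts in shCON and 42 and 60 in shZDHHC15, or 2.19 and 3.02 CPM against 2.25 and 3.05 CPM. The ranges of the groups overlapped for the most part. The log2 fold change of 0.04 had a 95% interval from -0.59 to 0.67 (adjusted p = 0.933 from edgeR). Differences within that interval are compatible with these low counts from 2 samples in each group. Of its neighbors on chromosome 6, which encode the related lymphotoxins, LTA had 2 to 4 counts and LTB had 32 and 32 counts in shCON and 34 and 39 in shZDHHC15 (adjusted p = 0.891).

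BIRC3 (ENSG00000023445, chromosome 11, 102317450 to 102339403, plus strand) encodes cIAP2, a ubiquitin ligase of the tumor necrosis factor receptor complex that protects from cell death. Its level was 106 and 77.4 CPM in shCON and 117 and 116 CPM in shZDHHC15. The shCON samples differed from each other by more than the nearer of them differed from the depleted samples. The log2 fold change was 0.35 with a standard error of 0.125 (adjusted p = 0.0373 from edgeR), and the call was lost under 7 of the 14 alternatives (adjusted p between 3.29e-06 and 0.360). Without shCON replicate 2, the lower control, the value was 0.13 (adjusted p = 0.360). Without shZDHHC15 replicate 1 it was 0.34 (adjusted p = 0.0684), and without shZDHHC15 replicate 2 it was 0.35 (adjusted p = 0.0505).

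BIRC3 lies next to YAP1 on chromosome 11, with 84026 bases and no protein-coding gene between them, and the gene of the YAP transcription cofactor moved the other way. YAP1 went from 7764 and 7011 counts to 1024 and 1272, a log2 fold change of -2.81 with a standard error of 0.105 (adjusted p = 4.36e-11 from edgeR). On the far side of BIRC3, at a distance of 7807 bases, BIRC2, which encodes cIAP1, had 3333 and 2922 counts in shCON and 4412 and 4357 in shZDHHC15. It rose by 0.37 (standard error 0.0912, adjusted p = 0.00489), a call that was lost without shZDHHC15 replicate 1 (0.32, adjusted p = 0.0764) and with glmTreat (adjusted p = 0.131, the highest over the alternatives). The next gene, TMEM123, a membrane protein gene, rose by 0.46 (standard error 0.0952, adjusted p = 0.00138). The fall of YAP1 was thus not shared by the 3 tested protein-coding genes that follow it.

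**Figure D3:**
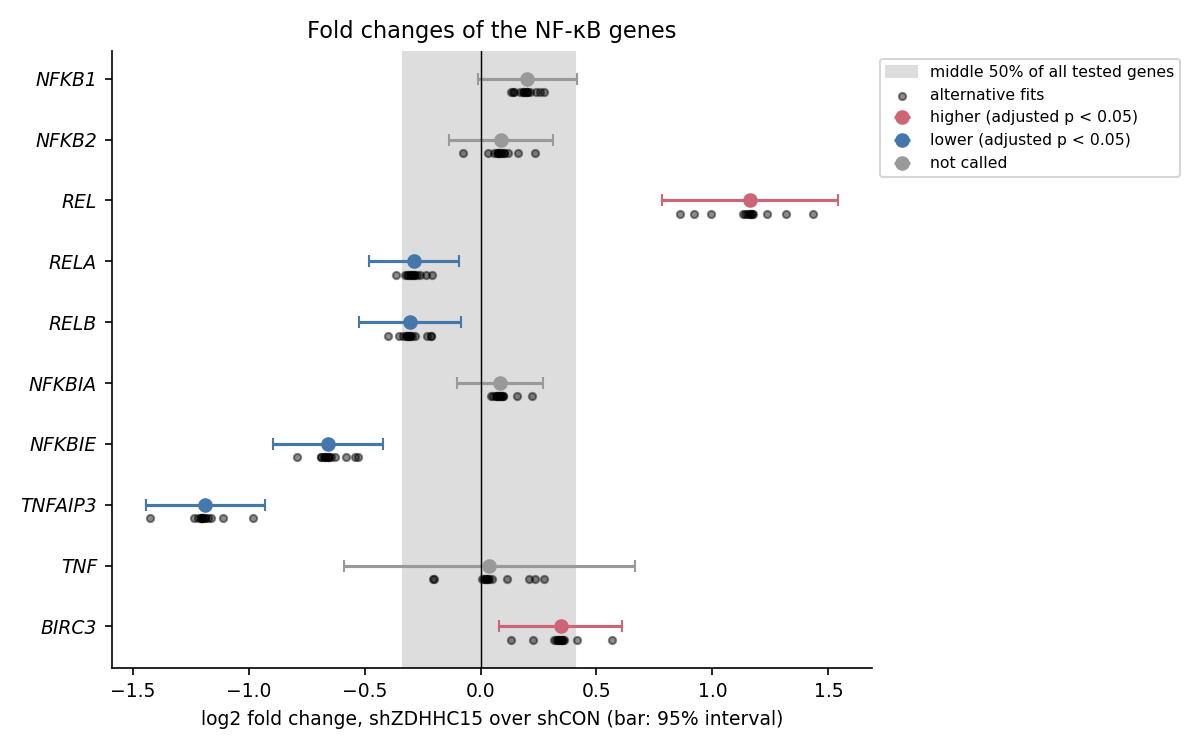
Log2 fold changes of the 10 genes in shZDHHC15 over shCON with 95% intervals, red for higher, blue for lower and grey for not called, above the values of the alternative fits (small black points). The grey band is the middle 50% of all tested genes, from -0.33 to 0.41, and only REL, NFKBIE and TNFAIP3 have intervals that lie outside it.

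To compare levels between genes, CPM was divided by the length of the gene in the table in kilobases. That length is fixed for each gene, whichever of its transcripts are expressed, and comparisons between genes depend on it. In shCON cells TNFAIP3 was the most abundant of the 10, at 120 CPM per kb, ahead of NFKBIA at 99.9, NFKB2 at 50.1 and RELA at 43.0 CPM per kb, and the samples of these neighbors in the order did not overlap. RELB and NFKBIE came next at 30.3 and 28.0 CPM per kb and overlapped, as did NFKB1 and BIRC3 at 12.6 and 12.2 CPM per kb. TNF followed at 1.55 and REL at 0.785 CPM per kb. In shZDHHC15 cells NFKBIA was first at 106 CPM per kb, NFKB2 and TNFAIP3 followed at 53.3 and 52.8 CPM per kb with overlapping samples, and REL and TNF were last at 1.77 and 1.58 CPM per kb, again overlapping. The ratio of the inhibitors to each other therefore changed, from TNFAIP3 above NFKBIA in both controls to TNFAIP3 below NFKBIA in both depleted samples.

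On the same per-length scale, the shares of the 5 subunit genes in their summed level moved by a few percentage points. RELA held 30.8% and 32.0% of the sum in shCON and 28.6% and 26.1% in shZDHHC15. RELB held 22.2% and 22.1% in shCON and 19.0% and 19.0% in shZDHHC15. NFKB2 was the largest part, with 36.5% and 36.8% in shCON and 39.3% and 42.9% in shZDHHC15. The activating subunits RELA and RELB thus held less and the precursor NFKB2 more of the sum in both depleted samples. NFKB2 itself did not pass the test, and the falls of RELA and RELB were not secure, as given above. NFKB1 held 9.76% and 8.66% in shCON and 11.5% and 10.9% in shZDHHC15. REL, also an activating subunit, held more, with 0.692% and 0.461% in shCON and 1.62% and 1.14% in shZDHHC15. For all 5 genes the shares of the groups did not overlap, and since the shares sum to 100% they are not independent of each other.

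The calls have to be read beside gene length, which moved with the comparison over the whole table. Among tested genes of 7 kb or more, 37.2% were higher and 10.7% lower, with a median log2 fold change of 0.22, whereas among genes under 2 kb 9.89% were higher and 24.8% lower, with a median of -0.21. REL, at 13.2 kb, and BIRC3, at 7.52 kb, are the 2 longest members and the 2 that were called higher. Length also separated the controls, since the median log2 ratio of shCON replicate 2 over shCON replicate 1 was -0.11 for genes of 7 kb or more and 0.10 for genes under 2 kb, and it was -0.53 for REL and -0.45 for BIRC3. In a fit with the length trend of each sample removed, chosen after seeing the data, REL was still higher (0.86, adjusted p = 2.45e-04), TNFAIP3 (-1.20, adjusted p = 2.01e-07), NFKBIE (-0.53, adjusted p = 4.91e-04) and RELA (-0.33, adjusted p = 0.00735) were still lower, and BIRC3 (0.22, adjusted p = 0.111) and RELB (-0.21, adjusted p = 0.0884) were not called. NFKBIA was called higher in that fit (0.22, adjusted p = 0.0442).

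The rest of the pathway was examined through 7 lists with 138 genes in all, of which 123 were tested. The lists were chosen with earlier results of these data known, so the shares below describe the lists and test nothing. Of these 56 were higher and 25 lower, or 45.5% and 20.3%, against 21.7% and 20.3% of all tested genes, with a median log2 fold change of 0.21. Among the other IκB proteins, BCL3, a nuclear IκB protein that works with the DNA-binding subunits, rose by 1.05 (standard error 0.0989, adjusted p = 1.10e-06 from edgeR), from 1339 and 1291 counts to 3047 and 2892. NFKBIB, which encodes IκBβ, fell by 0.41 (adjusted p = 0.0124), a call lost under 5 of the 14 alternatives. These were no filter (adjusted p = 0.0770), glmTreat (adjusted p = 0.113), the length trend removed (-0.27, adjusted p = 0.0549), without shCON replicate 2 (-0.27, adjusted p = 0.0649) and without shZDHHC15 replicate 1 (-0.31, adjusted p = 0.124, the highest over the alternatives). The 2 remaining genes, NFKBIZ and NFKBID, did not pass, with -0.02 and -0.22.

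Among the kinases, 7 of 16 tested genes were higher and 3 lower, or 43.8% and 18.8% against 21.7% and 20.3% of all tested genes, with a median of 0.27. The 3 core genes of the IκB kinase complex did not pass the test, with log2 fold changes of 0.25 for CHUK, -0.25 for IKBKB and 0.13 for IKBKG. The rises were led by IRAK2 (1.05), a kinase of the interleukin-1 and Toll-like receptor complex, to the IKK-related kinases IKBKE (1.00) and TBK1 (0.54), to MAP3K8 (0.76) and, with a smaller change, to TAB3 (0.42). MAP3K14, which encodes NIK, the kinase that starts the alternative pathway, fell by 0.90 (standard error 0.131, adjusted p = 7.43e-05 from edgeR). IRAK1 fell by 0.49 and RIPK2 by 0.41. TAB3 was lost without shCON replicate 2 (0.25, adjusted p = 0.0676), with the length trend removed (0.13, adjusted p = 0.307), with no filter (adjusted p = 0.0833) and with glmTreat (adjusted p = 0.0960). RIPK2 was lost without shZDHHC15 replicate 1 (-0.32, adjusted p = 0.0949) and with glmTreat (adjusted p = 0.0815). Genes on the opposite strand overlap exons of IKBKE, TBK1, TAB3 and MAP3K14, and whether counting used the strand is not given in the sources used here.

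Of 14 tested adaptor genes 9 did not pass the test, 1 was higher and 4 were lower, or 7.14% and 28.6% against 21.7% and 20.3% of all tested genes, with a median of -0.07. MYD88, the adaptor of the interleukin-1 and Toll-like receptors, rose by 0.62 (standard error 0.0950, adjusted p = 1.22e-04 from edgeR). TICAM1, the adaptor of TLR3, fell by 0.72 (standard error 0.113, adjusted p = 1.50e-04). TRAF1, itself a target of NF-κB, fell by 0.92, BCL10 by 0.59 and CRADD by 0.97, the last from 81 and 85 counts to 52 and 40, a call lost without shZDHHC15 replicate 2 (-0.76). The adaptors of the tumor necrosis factor receptors, TRADD and TRAF2, did not pass (-0.24 and -0.14).

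Of 19 ubiquitin ligases, deubiquitinases and their partners, 11 were higher and 3 lower, or 57.9% and 15.8% against 21.7% and 20.3% of all tested genes, with a median of 0.31. USP18, which removes the ubiquitin-like protein ISG15, had the largest rise, 3.47 (from 151 and 130 counts to 1806 and 1570), and its sequence is shared in part with USP41. TNIP3, an A20-binding protein, rose by 2.64 (standard error 0.209, adjusted p = 1.81e-07 from edgeR), from 62 and 46 counts to 407 and 327. Its relative TNIP2 fell by 0.55, so that the partners of A20 did not move together. N4BP1 rose by 1.11, the ribonuclease gene ZC3H12A by 0.59 and the deubiquitinase gene OTUD7B by 0.51. RNF11, a partner of A20, fell by 0.38 and SHARPIN, a subunit of the linear ubiquitin ligase, by 0.37. The genes of the other subunits of that ligase, RNF31 and RBCK1, outside the naming rule, rose by 0.49 and 0.43. CYLD, which like TNFAIP3 limits the pathway by removing ubiquitin, did not pass (0.07, adjusted p = 0.621). The calls of OTUD7B (0.36), RNF11 (-0.37) and SHARPIN (-0.34) were lost without shZDHHC15 replicate 1, that of OTUD7B also with the length trend removed (0.22), and those of RNF11 and SHARPIN also with glmTreat.

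Of 17 tested receptor genes 10 were higher and 3 lower, or 58.8% and 17.6% against 21.7% and 20.3% of all tested genes, with a median of 0.51. The higher genes were led by Toll-like receptors, which recognize microbial products, but not the whole family rose. TLR4 had 547 and 341 counts in shCON and 431 and 431 in shZDHHC15, and did not pass (-0.16, adjusted p = 0.458 from edgeR). TLR3 rose by 2.59 from 11 and 10 counts to 79 and 60. Transcripts of TLR3 share runs of 75 bases with those of 8 other genes. TLR2 rose by 2.24 from 57 and 51 counts to 268 and 287, and TLR6 rose by 0.97. TLR1, whose exons overlap those of TLR6, rose by 1.02 at 25 to 74 counts, a call lost without shCON replicate 1 (0.68), without shZDHHC15 replicate 1 (0.86), with the DESeq2 Wald test and with no filter. TNFRSF11A, which encodes the receptor RANK, rose by 1.74 (standard error 0.196, adjusted p = 7.05e-06 from edgeR). TNFRSF12A, the receptor for the ligand TWEAK and the most abundant of the list by counts, fell by 0.86 (standard error 0.116, adjusted p = 3.86e-05), and TNFRSF21 fell by 0.39, a call lost without shZDHHC15 replicate 1 (-0.35) and with glmTreat. TNFRSF19, chosen after its values were seen because only 3 receptors were lower, went from 41 and 52 counts to 7 and 3. Only 5 of 10 ligand genes were expressed enough to be tested, and of these TNFSF14 was higher, from 1 and 2 counts to 10 and 12, also named after its values were seen.

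**Figure D4:**
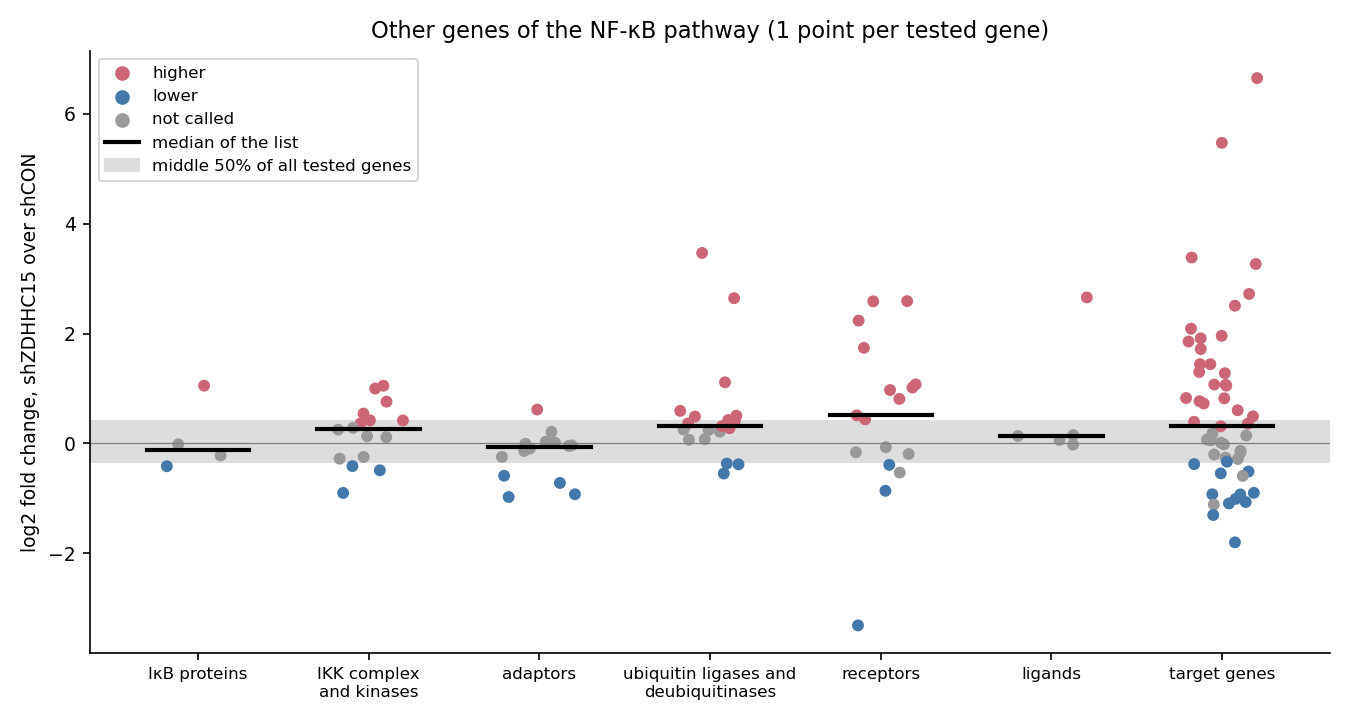
Log2 fold changes in shZDHHC15 over shCON of the tested genes in 7 lists of the NF-κB pathway, 1 point per gene, red for higher, blue for lower and grey for not called, with a black line at the median of each list. The medians lie between -0.12 for the IκB proteins and 0.51 for the receptors, and the target genes spread from -1.80 to 6.65.

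Genes known as targets of NF-κB moved in both directions. Of 58 genes 53 were tested, with 27 higher and 12 lower, and a median of 0.31. These were 50.9% and 22.6%, against 21.7% and 20.3% of all tested genes, so that the lower share was near that of all genes. With a log2 fold change beyond 1 there were 18 higher and 5 lower among the 53. Over all 15817 tested genes there were 1188 higher and 599 lower, or 7.51% and 3.79%. The higher genes were led by the chemokine genes CXCL10 (6.65) and CCL5 (2.72), which interferon also induces, the protease inhibitor gene SERPINE2 (3.38) and the cytokine subunit gene EBI3 (3.26, from 12 and 7 counts to 107 and 94). Transcripts of CCL5 share runs of 75 bases with those of 75 other genes, so that part of its reads could have been assigned elsewhere. TNFAIP6, which encodes a hyaluronan-binding protein, went from 1 and 2 counts to 75 and 81. The ratio was 47.7, with a 95% counting interval from 16 to 234.

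The lower target genes included several abundant ones, and so did the higher ones. Outside the naming rule and chosen after their values were seen, LCN2 rose by 0.83 and SOD2 by 2.09. The mean level of LCN2 was 1897 CPM in shCON and 3366 CPM in shZDHHC15, and that of SOD2 was 232 and 986 CPM. GADD45B, a stress response gene, fell by 1.80 (standard error 0.121, adjusted p = 3.16e-08 from edgeR), from 1352 and 1516 counts to 438 and 463. CCND1, which encodes cyclin D1, fell by 1.30, from 58294 and 53115 counts to 22052 and 27309. IER3 fell by 1.09, KLF6 by 1.06 and the survival gene BCL2L1 by 1.01. Antisense genes overlap exons of IER3 and BCL2L1, and a gene on the opposite strand overlaps CCND1. Of the 45 target genes with a promoter entry, 23 held a match to the κB decamer consensus, or 51.1%, against 13.3% of all genes with an entry.

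Over the 4 samples, the patterns most like that of REL among the 11099 candidates (protein-coding, averaging 50 counts or more) were those of ARHGEF38, HCAR3 and KDM7A, at Euclidean distances of 0.0966, 0.0973 and 0.10 between log2 CPM values centered on each gene's mean. Their counts were lower in shCON replicate 2 than in replicate 1, as for REL. Those most like TNFAIP3 were TMEM156, DUSP14 and PSTK, at distances of 0.0800, 0.0943 and 0.112. With only 4 samples such a likeness rests on the group difference and the spread within each group.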

How the data were processed

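RNA of HCC1954 cells was sequenced in 4 samples, 2 shCON and 2 shZDHHC15, grouped by their titles. The authors deposited raw counts of reads per gene, not normalized, for 58735 genes. The submitters' processing notes name HISAT2, StringTie, SAMtools and hg38, and the counting tool and strand setting are not given in the sources used here. All 58735 identifiers matched GENCODE release 29 on GRCh38 in start, end and strand. No column of per-sample values was left out.

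Genes passing filterByExpr (15817) were tested in R 4.3.3 with edgeR 4.0.16 and limma 3.58.1, using TMM factors of 0.962 to 1.03, glmQLFit (non-legacy quasi-dispersion) and glmQLFTest, and p-values were adjusted by the Benjamini-Hochberg method. Each standard error was derived from the F statistic and its fold change, and 95% intervals from it and the test's degrees of freedom. Where a symbol had more than 1 row, the row with more counts was used. DESeq2 1.42.0 served as an alternative, and tests were checked on simulated data. The samples of a group differed by more than counting noise (chi-square per degree of freedom of 8.32 in shCON and 6.79 in shZDHHC15) and were kept as separate replicates.

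The members and lists were chosen with earlier results of these data known. Named are the 10 members, the targeted gene, chromosomal neighbors of BIRC3 and TNF, up to 5 of the largest rises and falls in each pathway list among called genes averaging 50 counts or more in the group with the higher level, and the 3 genes nearest in pattern to the member that rose most and to the one that fell most. Genes outside this rule are described as such or given as values that did not pass the test. Alternatives in scaling were library size only, upper-quartile factors and the size factors of DESeq2. Other alternatives were its Wald test, no filter, a minimum of 10 counts in all samples, the older quasi-dispersion of edgeR, a replicate block, glmTreat with a 1.2-fold limit, removal of the length trend (a lowess curve per sample, added after seeing the data) and leaving out each of the 4 samples. Promoter sequences are RefSeq's on GRCh38.p14. Intervals on counts cover counting error only.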

Additional observations from a re-analysis of the deposited data

How the results depend on the processing

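REL stayed higher and NFKBIE and TNFAIP3 stayed lower under all 14 alternatives. The count of higher members, 2, fell to 1 with the DESeq2 Wald test, with no filter on low counts and with glmTreat, in each case by losing BIRC3. The count of lower members, 4, fell to 2 with library size only, with no filter and with glmTreat, in each case by losing RELA and RELB. With each sample left out in turn, where the lone sample of a group is assumed to vary like the other group, 1 to 2 members were higher and 2 to 4 lower, NFKB2 lay between -0.075 and 0.23, and TNF between -0.20 and 0.28, both uncalled throughout. Over all genes the calls fell from 6644 to 4156 with glmTreat (2274 higher and 1882 lower, against 3427 and 3217), and the higher calls to 2282 with no filter. The cause was not tested, other than that glmTreat asks for a larger change by its construction. In the pathway lists 43 to 60 genes were higher and 18 to 29 lower, against 56 and 25, and whether these were the same genes was not counted. The κB matches stood in the same number of genes, 6, within the 250 bases before the start. The replicate block left 2 members higher and 4 lower. The deviations of same-numbered samples correlated at 0.0821 over genes, and the numbers were not taken to pair the samples. At these depths the floor of 3 counts is 0.153 to 0.178 CPM, and depth limits mainly TNF.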
